A study of Homo sapiens with 23 samples.

Results

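The tumour necrosis factor (TNF) superfamily ligands and receptors are described here in drug-naive melanoma cells and in 7 drug-resistant clones grown from them. Members were chosen by name: gene symbols beginning with TNFSF or TNFRSF and a number, together with TNF, LTA, LTB, LTBR, FAS, FASLG, CD40, CD27, CD70 and EDA2R. The rule found 42 genes of the 35438 in the table, and 23 of them passed the filter on low values used for testing (1 TPM or more in 2 or more libraries), as did 15657 genes in all. TPM is a transcript level per length and per library total, so levels can be compared between genes. By role, the 42 genes comprised 16 ligands, 6 receptors with a death domain, 4 decoy receptors and 16 receptors without a death domain.

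Ligands of this superfamily are membrane proteins that act in trimers, on the cell surface or after release by proteases, and cluster their receptors. Receptors with a death domain can assemble a caspase-activating complex, receptors without one recruit TRAF adaptors that turn on NF-kappa-B and stress kinases, and decoy receptors bind ligand without passing on a death signal. In melanoma, TNF and its relatives are best known as products of infiltrating immune cells that act on the tumour cell, while the samples here are labelled as cultures of 1 tumour cell line.

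Poly(A) RNA from WM989 A6-G3, a human melanoma line obtained from repeated single-cell bottlenecks, was sequenced with paired ends. The untreated group (3 libraries) had seen no drug. Clones 7, 8 and 9 (3 libraries each) were grown from colonies that arose under 1 µM vemurafenib, a BRAF inhibitor, and were kept in that dose. Clones 10, 11, 12 and 13 were obtained in the same way under a mix of 250 nM dabrafenib, which also targets BRAF, and 2.5 nM trametinib, which targets MEK, and stayed in that mix. Clone 11 is represented by replicates 2 and 3, and the other 3 clones of this arm by 3 libraries each. All groups share the genotype label WT and the same culture medium apart from drug. Each clone descends from 1 colony, and every clone library came from cells in drug, so resistance and the presence of drug cannot be told apart, nor can clone and drug arm within a single clone. The libraries are labelled biological replicates with no separate source named, so p-values measure the spread between libraries, which may be technical. In such bulk samples, fewer expressing cells and less RNA per cell cannot be told apart.

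Between 18671 and 24039 genes were above 0 in each library except clone 10 replicate 1, where 14415 were. Of the 42 members, 19 were above 0 in that library and 32 to 42 in the others. Calls that were lost without it are named, except for pairs of clones, whose counts are given with it only. The summed level of 7 melanocyte lineage genes (MITF, SOX10, PMEL, MLANA, TYR, DCT and TYRP1) was 11963 to 12337 TPM in untreated libraries and 21.7 to 466 TPM in clone libraries, and each of the 7 was lower in all clone libraries than in all untreated ones. Of the immune markers, the T-cell genes CD3D and CD2 were at 0 in 21 and 22 of the 23 libraries. The B-cell gene MS4A1 was at 0 in 22, and the monocyte gene CD14 at no more than 0.701 TPM. Others of the T and NK cell list were detected. PTPRC read 1.15 to 1.36 TPM in untreated and 0.620 to 4.99 TPM in clone libraries. CD3G and NKG7 were at 0 in 1 library each and did not exceed 0.528 and 0.760 TPM. The 7 T and NK cell markers summed to 1.76 to 1.95 TPM in untreated and 1.31 to 5.39 TPM in clone libraries, highest in clone 8. The 5 B and plasma cell markers summed to at most 0.493 TPM. The 5 endothelial markers summed to 1.53 to 1.66 TPM in untreated and 1.45 to 5.43 TPM in clone libraries. The 7 myeloid markers summed to 167 to 169 TPM in untreated libraries and to 152 to 756 TPM in clone libraries, most of it from CD68, a lysosomal protein gene that many cells express, while AIF1 stayed at or below 0.0652 TPM and CSF1R reached 9.14 TPM in a clone library. FCER1G, also in the myeloid list, read 5.99 to 8.75 TPM in untreated and 1.25 to 4.80 TPM in clone libraries. The 4 keratinocyte markers summed to 7.88 to 9.54 TPM in untreated and 9.64 to 18.1 TPM in clone libraries, most of it from KRT10. The part of these marker differences in the results on the members was not tested.

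Against untreated cells, the mean of the 7 clones was higher for 9 of the 23 tested members, lower for 3 and not called for 11. The receptors FAS, TNFRSF1A, TNFRSF12A, TNFRSF1B and the decoy TNFRSF11B rose, as did the ligands TNFSF13B, TNFSF15, TNFSF10 and TNFSF9. TNFRSF11A, TNFRSF14 and TNFRSF19, 3 receptors without a death domain, fell. A gene was called where limma on log2(scaled TPM + 1) gave an adjusted p (Benjamini-Hochberg, over all 15657 genes) under 0.05 and the log2 fold change was 1 or more in size. By the same rule 10.9% of all genes tested were called higher and 7.92% lower. TNFRSF11B, TNFRSF1B, TNFSF10 and TNFSF15 stood under 1 TPM in every untreated library, as did TNFRSF4 and TNFRSF6B, and TNFSF13B reached 1 TPM in only 1 of them. These 7 were tested only because of the clones. TNFRSF11A reached 1 TPM in no clone library and was tested only because of the untreated ones. A count over tested members is therefore a description and supports nothing further. The median log2 fold change of the 23 tested members was 0.35, beside -0.01 for all genes tested. All 20 clone libraries lay above all 3 untreated libraries for 7 tested members (14.5% of all genes tested did so) and below them for 4 (13.3% of all genes tested). All fold changes are differences of log2(scaled TPM + 1), which understates the change of low genes, and all levels are scaled TPM.

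**Figure D1:**
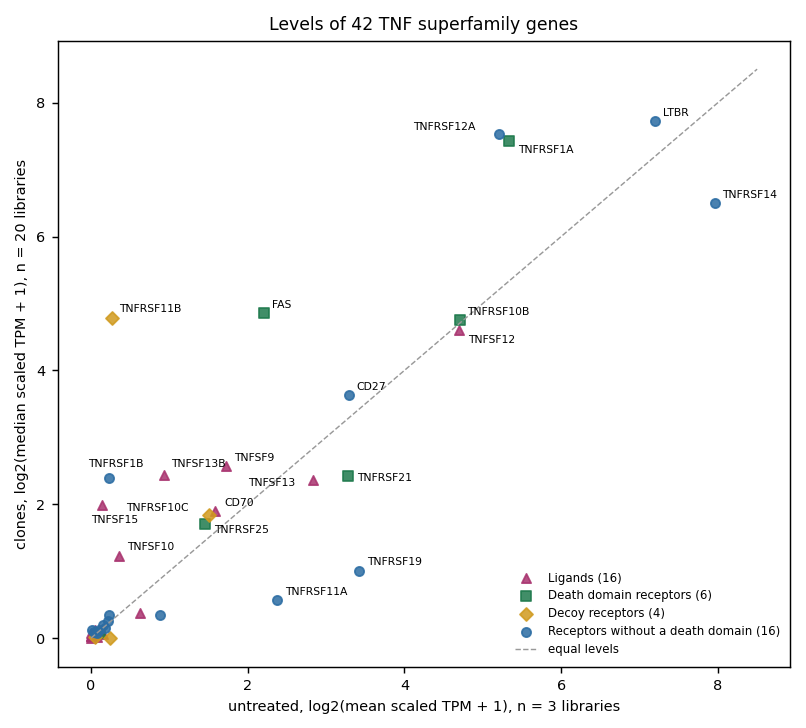
Level of each of the 42 genes in untreated cells (x axis, log2 of mean scaled TPM + 1, n = 3 libraries) against the median of the 20 clone libraries (y axis, same scale), with the marker shape giving the role and the dashed line equal levels. TNFRSF11B and FAS lie farthest above the line, TNFRSF19, TNFRSF11A and TNFRSF14 lie below it, and TNFRSF14 had the highest level in untreated cells, 248 ± 3.44 TPM (SD, n = 3).

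Promoter sequence was looked up in RefSeq (GRCh38.p14), in windows from 250 bases before to 50 bases after each annotated start. For 29 of the 42 members 39 such windows were used. Some members were left out of the search by chromosome, so a missing window does not mean that a gene has no annotated start. TNFRSF11B and TNFRSF12A, which rose, have no window here. The windows were searched on both strands for 6 motifs, among them the interferon-stimulated response element (ISRE, GAAANNGAAA), the AP-1 site (TGANTCA), the NF-kappa-B site and the TEAD site (GGAATG). Of 35116 windows of this length in the table, 3.57% hold the ISRE letters, 7.71% the AP-1 letters, 11.3% an NF-kappa-B match and 14% the TEAD letters. This background was not filtered by chromosome. Counting a gene once if any of its windows holds a match, the shares over 27305 genes are 4.38% for the ISRE, 9.37% for AP-1, 13.3% for NF-kappa-B and 16.7% for TEAD. By the same count, 4 of the 7 members that rose and have a window hold an ISRE match (TNFRSF1B, TNFSF10, TNFSF13B and TNFSF9), 2 an AP-1 match (FAS and TNFSF15) and 1 an NF-kappa-B match (FAS). Of the 3 members that fell, 2 hold an NF-kappa-B match (TNFRSF14 and TNFRSF19) and none an ISRE or AP-1 match. Of the other 19 members with a window, 2 hold the ISRE letters (FASLG and TNFSF14), 5 an AP-1 match (CD27, EDA2R, TNFRSF8, TNFRSF9 and TNFSF14) and 7 an NF-kappa-B match (LTA, LTB, TNFRSF25, TNFRSF9, TNFSF11, TNFSF13 and TNFSF14). The interferon gamma-activated site (TTCNNNGAA, 9.38% of all genes) was in no window of a member that rose or fell and in 4 of the other 19, and the MITF boxes (CATGTG or CACGTG, 20.9% of all genes) were in a window of TNFSF13B and in 5 of the other 19. These are matches of letters, not binding sites, and windows of 1 gene can overlap. Of the members that rose, TNFRSF1B, TNFSF10 and TNFSF15 were under 1 TPM in every untreated library, and TNFSF13B reached it in only 1. They were tested only because of the clones, and TNFRSF11A, which fell, only because of the untreated libraries. The shares are over all genes with a window, tested or not. The counts are therefore a description and support nothing further. The bases before the start are printed 5′ to 3′ on the gene's strand, with the matches in capitals. They are given for the members that rose or fell and hold an ISRE, AP-1 or NF-kappa-B match, apart from TNFRSF19. For FAS the stretch with the AP-1 match is printed, and its NF-kappa-B match lies in the window of another annotated start (chr10:88991181-88991480).
FAS, chr10:88990548-88990797, plus strand, AP-1 match from -242 to -236 relative to the start: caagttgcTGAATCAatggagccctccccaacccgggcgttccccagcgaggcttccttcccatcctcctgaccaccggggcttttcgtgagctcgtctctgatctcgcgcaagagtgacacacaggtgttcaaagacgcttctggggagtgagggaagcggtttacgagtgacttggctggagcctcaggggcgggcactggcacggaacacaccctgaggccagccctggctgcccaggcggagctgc
TNFSF15, chr9:114792531-114792780, minus strand, AP-1 match from -120 to -114 and TEAD match from -80 to -75: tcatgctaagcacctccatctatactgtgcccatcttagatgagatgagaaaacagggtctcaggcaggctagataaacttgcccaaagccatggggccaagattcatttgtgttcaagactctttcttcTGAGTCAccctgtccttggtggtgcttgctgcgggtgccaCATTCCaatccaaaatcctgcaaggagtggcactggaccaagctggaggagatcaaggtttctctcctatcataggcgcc
TNFRSF1B, chr1:12166741-12166990, plus strand, ISRE match from -10 to -1: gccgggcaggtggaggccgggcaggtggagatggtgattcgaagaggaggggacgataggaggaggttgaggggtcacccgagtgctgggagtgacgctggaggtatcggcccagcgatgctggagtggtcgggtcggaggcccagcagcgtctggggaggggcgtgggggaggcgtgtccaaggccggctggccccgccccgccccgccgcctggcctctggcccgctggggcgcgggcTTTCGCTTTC
TNFSF10, chr3:172523431-172523680, minus strand, ISRE match from -187 to -178: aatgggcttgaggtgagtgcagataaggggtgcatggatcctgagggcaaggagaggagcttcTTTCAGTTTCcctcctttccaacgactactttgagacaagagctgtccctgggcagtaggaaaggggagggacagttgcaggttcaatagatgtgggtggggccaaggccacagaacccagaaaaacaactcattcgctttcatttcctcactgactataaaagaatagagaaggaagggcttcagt
TNFSF9, chr19:6530776-6531025, plus strand, ISRE match from -194 to -185: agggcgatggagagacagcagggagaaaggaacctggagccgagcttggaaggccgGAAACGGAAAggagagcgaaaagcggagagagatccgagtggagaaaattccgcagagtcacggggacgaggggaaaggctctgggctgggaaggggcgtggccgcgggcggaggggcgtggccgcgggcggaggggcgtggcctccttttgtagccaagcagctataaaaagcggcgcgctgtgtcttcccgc
TNFSF13B, chr13:108269637-108269666, plus strand, the 30 bases around the ISRE match, which lies between its 2 annotated starts, from -71 to -62 relative to the second: tacaaaaactGAAAGTGAAAtgaggaagac
TNFRSF14, chr1:2556121-2556370, plus strand, 3 overlapping NF-kappa-B matches from -86 to -75 and a TEAD match from -48 to -43: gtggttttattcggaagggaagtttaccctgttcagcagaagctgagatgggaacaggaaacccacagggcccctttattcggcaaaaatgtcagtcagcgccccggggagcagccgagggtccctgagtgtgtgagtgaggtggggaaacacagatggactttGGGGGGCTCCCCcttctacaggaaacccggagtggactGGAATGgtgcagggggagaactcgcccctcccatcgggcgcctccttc

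Among the 16 ligands, 7 were tested, and 4 of these rose in the mean of the clones. TNFSF13B encodes BAFF, a survival factor for B cells. TNFSF13B read 0.768, 1.10 and 0.854 TPM in untreated cells, then 0.807, 1.68 and 1.54 (clone 7), 3.55, 4.17 and 5.99 (clone 8), 1.55, 3.02 and 1.80 (clone 9). TNFSF13B in the other arm read 25.9, 14.1 and 7.10 (clone 10), 7.11 and 3.90 (clone 11), 9.74, 8.05 and 7.05 (clone 12), 3.89, 4.72 and 4.78 (clone 13). Clone 10 was highest on average and clone 7 overlapped the untreated libraries. TNFSF13B averaged over the clones differed by 1.57 ± 0.24 (SE; adjusted p = 1.56e-05). By clone, TNFSF13B rose in clone 8 (1.53), clone 10 (2.97), clone 11 (1.73), clone 12 (2.28) and clone 13 (1.52), and was not called in clone 7 (0.28) or clone 9 (0.69). Without clone 10 replicate 1, the highest library, the clone 10 value was 2.54.

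TNFSF15 encodes TL1A, the ligand of the death receptor TNFRSF25. TNFSF15 read 0.0952, 0.103 and 0.0940 TPM in untreated cells, then 0.396, 0.357 and 0.361 (clone 7), 0.840, 0.623 and 0.625 (clone 8), 3.25, 3.09 and 2.93 (clone 9). TNFSF15 in the other arm read 4.87, 5.76 and 3.67 (clone 10), 0.745 and 0.923 (clone 11), 3.03, 4.03 and 3.32 (clone 12), 1.78, 3.58 and 3.30 (clone 13). Every clone library was above the untreated ones, and clones 7, 8 and 11 lay below 1 TPM while clones 9, 10, 12 and 13 lay above it. TNFSF15 differed on average by 1.40 ± 0.13 (SE; adjusted p = 1.43e-08). TNFSF15 rose in clone 9 (1.90), clone 10 (2.38), clone 12 (2.02) and clone 13 (1.79), and the differences of clones 7, 8 and 11 were 0.32, 0.63 and 0.74, under the fold threshold. Each of clones 9, 10, 12 and 13 was called higher than each of clones 7, 8 and 11, which made up 12 of the 21 pairs of clones.

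TNFSF10 encodes TRAIL, the ligand of TNFRSF10A and TNFRSF10B that can trigger apoptosis. TNFSF10 read 0.319, 0.244 and 0.293 TPM in untreated cells, then 0.620, 0.421 and 0.353 (clone 7), 3.80, 4.05 and 5.03 (clone 8), 2.08, 2.81 and 1.80 (clone 9). TNFSF10 in the other arm read 0, 1.26 and 0.906 (clone 10), 2.42 and 5.74 (clone 11), 1.43, 0.674 and 0.780 (clone 12), 1.22, 1.26 and 1.51 (clone 13). Clones 8, 9 and 11 held the highest libraries, and clone 10 replicate 1, where the gene is listed at 0, was the only clone library below the untreated range. TNFSF10 differed on average by 1.03 ± 0.20 (SE; adjusted p = 0.000177), just past the fold threshold. TNFSF10 rose in clone 8 (2.04), clone 9 (1.32) and clone 11 (1.90). The mean call was lost without clone 8 (0.87), clone 9 (0.98) or clone 11 (0.88), and without clone 10 replicate 2 (0.996) or clone 11 replicate 3 (0.96).

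TNFSF9 encodes 4-1BB ligand, a co-stimulatory protein for T cells whose receptor is TNFRSF9. TNFSF9 read 2.32, 2.49 and 2.13 TPM in untreated cells, then 3.01, 3.76 and 3.25 (clone 7), 2.93, 3.15 and 5.06 (clone 8), 3.80, 4.27 and 4.19 (clone 9). TNFSF9 in the other arm read 6.27, 7.93 and 4.53 (clone 10), 16.7 and 13.3 (clone 11), 10.1, 4.82 and 6.58 (clone 12), 5.98, 5.76 and 5.22 (clone 13). Every clone library exceeded the untreated ones, with clone 11 at the top. TNFSF9 averaged over the clones differed by 1.02 ± 0.16 (SE; adjusted p = 2.15e-05). TNFSF9 rose in clone 10 (1.10), clone 11 (2.27), clone 12 (1.25) and clone 13 (1.01). The mean call was lost without clone 11 (0.81) or clone 12 (0.98), and also without untreated replicate 3 (0.98), clone 8 replicate 3 (0.997), clone 10 replicate 2 (0.992), clone 11 replicate 2 (0.995) or clone 12 replicate 1 (0.98). Its receptor TNFRSF9 stayed at or below 0.374 TPM in all 23 libraries.

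CD70, the ligand of CD27, was not called in the mean of the clones (0.80, adjusted p = 0.00193, under the fold threshold). CD70 read 2.18, 1.84 and 1.98 TPM in untreated cells, then 3.20, 4.28 and 3.55 (clone 7), 6.29, 6.83 and 10.9 (clone 8), 2.31, 4.40 and 2.29 (clone 9). CD70 in the other arm read 0, 1.18 and 0.860 (clone 10), 35.8 and 46.0 (clone 11), 2.63, 1.55 and 1.43 (clone 12), 2.82, 2.61 and 2.35 (clone 13). Clone 11 stood far above every other library, clone 8 came next, and the clone 10 libraries and those of clone 12 replicates 2 and 3 were below the untreated range. CD70 rose in clone 8 (1.55, adjusted p = 6.30e-05) and clone 11 (3.80, adjusted p = 2.50e-09). In clone 10 the value of -0.91 was not called and was -0.57 without replicate 1, where the gene is listed at 0. Without clone 10 the mean of the clones passed the threshold at 1.09. CD27, its receptor, was at 7.81 to 9.42 TPM in untreated and 8.64 to 15.4 TPM in clone libraries, and its mean difference of 0.34 was not called.

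TNFSF12 (TWEAK, the ligand of TNFRSF12A) and TNFSF13 (APRIL) are neighbouring genes with a listed readthrough transcript, so their values are uncertain. The readthrough, TNFSF12-TNFSF13, was at or near 0 in the untreated libraries and reached 5.55 TPM in a clone library. TNFSF12 read 26.8, 24.6 and 23.7 TPM in untreated cells, then 20.4, 21.5 and 17.7 (clone 7), 37.8, 39.6 and 36.9 (clone 8), 26.2, 27.8 and 26.2 (clone 9). TNFSF12 in the other arm read 10.1, 23.2 and 16.0 (clone 10), 21.9 and 22.4 (clone 11), 23.7, 25.5 and 22.5 (clone 12), 26.5, 23.3 and 20.9 (clone 13). The clone 8 libraries were well above the untreated range and clone 10 replicate 1 was lowest. The mean of the clones differed by -0.09, which was not called, and its sign was positive with the values as deposited (0.0861) and without clone 10 (0.0120). TNFSF13 was lower in all 20 clone libraries (0 to 5.31 TPM) than in untreated cells (5.65 to 6.78 TPM), but the mean difference of -0.63 was not called (adjusted p = 0.0754). TNFSF13 fell in clone 11 (-1.10), and its call in clone 10 (-1.32) was lost without replicate 1 (-0.55), where it is listed at 0.

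**Figure D2:**
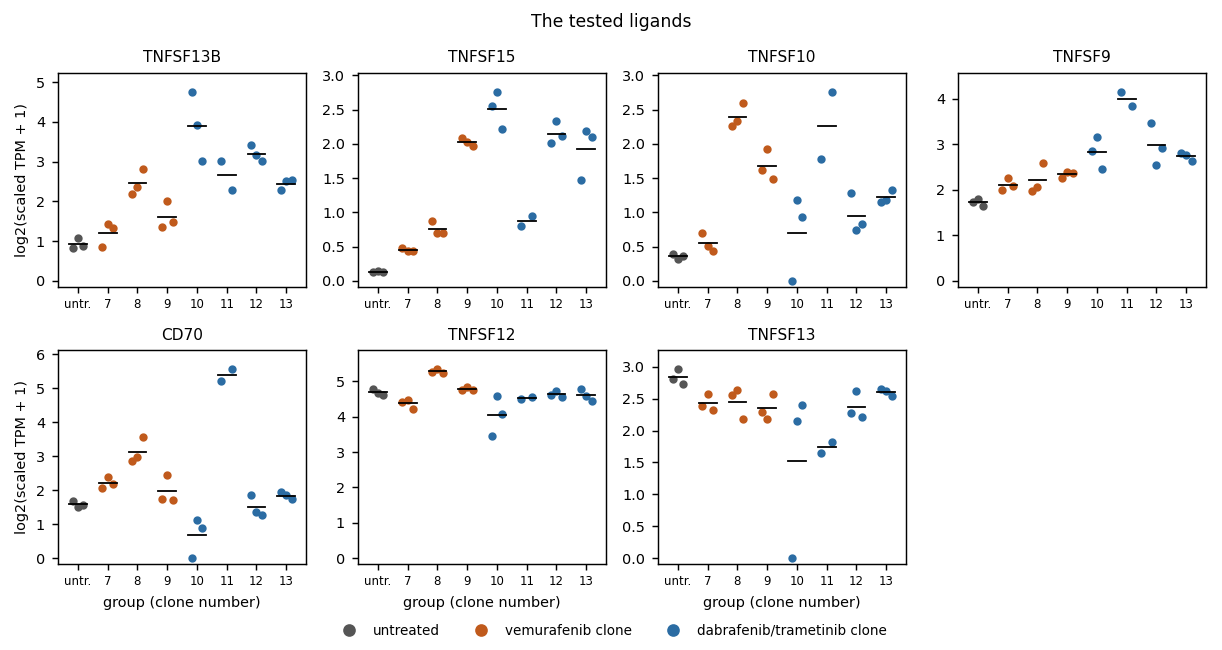
Each library's log2(scaled TPM + 1) for the 7 tested ligands (y axis) in untreated cells and clones 7 to 13 (x axis); points are libraries, bars are group means and colours give the drug arm. CD70 reached 35.8 and 46.0 TPM in the clone 11 libraries, and clone 10 replicate 1 is listed at 0 for TNFSF10, CD70 and TNFSF13.

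The 9 ligands that were not tested stood at low levels throughout. TNF itself was at 0 in the 3 untreated libraries and at no more than 0.0938 TPM in any clone library. FASLG, the ligand of FAS, did not exceed 0.118 TPM, and LTA and LTB, the lymphotoxins, did not exceed 0.363 and 0.205 TPM. TNFSF4 (OX40 ligand) was highest of the untested ligands at 0.961 TPM in clone 11. TNFSF18 (GITR ligand) was listed at 0 in the untreated libraries and read 0.507, 0.349 and 0.392 TPM in clone 9. TNFSF14 (LIGHT, a ligand of TNFRSF14 and LTBR) was lower in all 20 clone libraries, at or below 0.0982 TPM, than in untreated cells at 0.102 to 0.119 TPM. All these values are near 0, and the clone 11 libraries, at 0.0958 and 0.0982 TPM, were close to the untreated ones. The share of untested genes separated in this way is not given. TNFSF8 and TNFSF11, the ligands of TNFRSF8 and TNFRSF11A, did not exceed 0.0457 and 0.151 TPM.

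Of the 6 death domain receptors, 5 were tested and 2 rose in the mean of the clones. FAS, the receptor that triggers apoptosis on binding FASLG, read 3.39, 3.65 and 3.85 TPM in untreated cells, then 26.8, 22.1 and 23.0 (clone 7), 38.0, 40.2 and 27.2 (clone 8), 42.2, 35.8 and 50.0 (clone 9). FAS in the other arm read 28.4, 27.4 and 15.9 (clone 10), 18.9 and 14.9 (clone 11), 42.4, 23.3 and 19.6 (clone 12), 94.3, 65.7 and 36.8 (clone 13). All clone libraries were several-fold above untreated cells, with clone 13 highest and clone 11 lowest. FAS differed on average by 2.75 ± 0.23 (SE; adjusted p = 3.55e-09), and by clone the log2 fold change ran from 1.94 in clone 11 to 3.75 in clone 13, each called. The F test among the 7 clones gave an adjusted p of 0.00157 with a range of 1.81, and clone 13 exceeded clones 7, 10, 11 and 12 in pairwise contrasts.

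TNFRSF1A, the widely expressed TNF receptor TNFR1, read 41.2, 39.9 and 37.0 TPM in untreated cells, then 178, 162 and 142 (clone 7), 132, 121 and 108 (clone 8), 234, 244 and 246 (clone 9). TNFRSF1A in the other arm read 256, 223 and 165 (clone 10), 143 and 137 (clone 11), 211, 199.97 and 154 (clone 12), 195, 185 and 165 (clone 13). The lowest clone library, in clone 8, was well above the highest untreated library, and clones 9 and 10 held the highest values. TNFRSF1A averaged over the clones differed by 2.11 ± 0.11 (SE; adjusted p = 3.11e-12). Each clone was called, from 1.59 in clone 8 to 2.59 in clone 9. The F test gave an adjusted p of 0.000190, but the range of 0.998 between clone means was just under the threshold of 1. TNFRSF1A lies beside LTBR and CD27 in RefSeq gene order, with SCNN1A between it and LTBR, and the mean fold changes of these neighbours were 0.52 and 0.34, neither called.

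TNFRSF21 (death receptor 6) read 8.33, 8.83 and 9.03 TPM in untreated cells, then 1.23, 1.02 and 1.18 (clone 7), 6.90, 7.05 and 4.19 (clone 8), 4.40, 3.66 and 4.37 (clone 9). TNFRSF21 in the other arm read 11.6, 10.5 and 2.68 (clone 10), 6.86 and 5.75 (clone 11), 6.39, 7.98 and 5.25 (clone 12), 1.93, 1.20 and 1.17 (clone 13). Clones 7 and 13 were the low groups, and the libraries of clone 10 spread from below to above the untreated range. TNFRSF21 fell in clone 7 (-2.18, adjusted p = 1.11e-05) and clone 13 (-2.01, adjusted p = 2.66e-05). TNFRSF21 averaged over clones differed by -0.95 ± 0.24 (SE; adjusted p = 0.00219), under the fold threshold, and passed it with a pseudocount of 0.1 (-1.18). Clones 7 and 13 were each called lower than each of the other 5 clones, which made up the 10 called pairs of the 21, and the pair of clones 7 and 13 was not called.

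TNFRSF10B (TRAIL receptor 2) averaged 25.2 ± 1.48 TPM (SD, n = 3) untreated and ran from 17.3 to 74.9 TPM in clone libraries, and the mean difference of 0.15 was not called. The highest library, clone 13 replicate 2, stood above the other 2 of its clone at 22.0, 74.9 and 41.3 TPM in replicates 1 to 3. TNFRSF25, the receptor of TNFSF15, averaged 1.75 ± 0.329 TPM (SD, n = 3) untreated and ran from 1.29 to 4.02 TPM in the clones, with a mean difference of 0.31 that was not called. TNFRSF10A, the other TRAIL receptor with a death domain, was not tested and did not exceed 0.337 TPM. The TNFRSF10 genes are similar in sequence, and how reads were divided among them is uncertain.

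Among the 4 decoy receptors, 3 were tested and TNFRSF11B showed the largest fold change of the 23 tested members. TNFRSF11B encodes osteoprotegerin, a secreted protein that captures RANK ligand and TRAIL. TNFRSF11B read 0.199, 0.168 and 0.239 TPM in untreated cells, then 19.9, 18.1 and 17.4 (clone 7), 29.2, 27.2 and 10.0 (clone 8), 157, 105 and 172 (clone 9). TNFRSF11B in the other arm read 21.4, 64.3 and 92.6 (clone 10), 2.05 and 1.42 (clone 11), 7.94, 26.1 and 84.6 (clone 12), 16.9, 37.6 and 95.4 (clone 13). Clone 9 was highest, clone 11 lowest, and every clone library was above untreated cells, while libraries within clones 10, 12 and 13 differed several-fold. TNFRSF11B differed on average by 4.46 ± 0.51 (SE; adjusted p = 3.65e-07). TNFRSF11B was called higher in every clone but clone 11, from 4.02 in clone 7 to 6.89 in clone 9. The value of clone 11 was 1.18 and was not called (adjusted p = 0.223), although both of its libraries were above untreated cells. Its targets TNFSF11 (RANK ligand) and TNFSF10 (TRAIL) had at most 0.151 and 5.74 TPM.

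TNFRSF10C, a TRAIL decoy anchored in the membrane without a death domain, read 1.83, 1.77 and 1.94 TPM in untreated cells, then 2.79, 4.74 and 3.15 (clone 7), 1.68, 1.74 and 2.58 (clone 8), 1.74, 2.14 and 1.64 (clone 9). TNFRSF10C in the other arm read 0, 1.54 and 1.82 (clone 10), 3.23 and 4.35 (clone 11), 2.46, 2.58 and 2.61 (clone 12), 4.08, 3.65 and 3.51 (clone 13). Clones 7, 11, 12 and 13 were above the untreated range and clone 10 replicate 1 is listed at 0. The mean difference of 0.28 was not called, and the F test among clones (adjusted p = 0.00359, range 1.30) lost its call without clone 10 replicate 1 (range 0.83). TNFRSF6B, a secreted decoy for FASLG and TNFSF15, was listed at 0 in 17 of the 23 libraries and at 1.32, 5.64 and 0 TPM in clone 9. It overlaps RTEL1 and the readthrough RTEL1-TNFRSF6B, which was at 4.51 to 5.44 TPM in untreated and 2.37 to 8.54 TPM in clone libraries, so the TNFRSF6B values are uncertain. TNFRSF10D did not exceed 0.0505 TPM and was not tested.

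**Figure D3:**
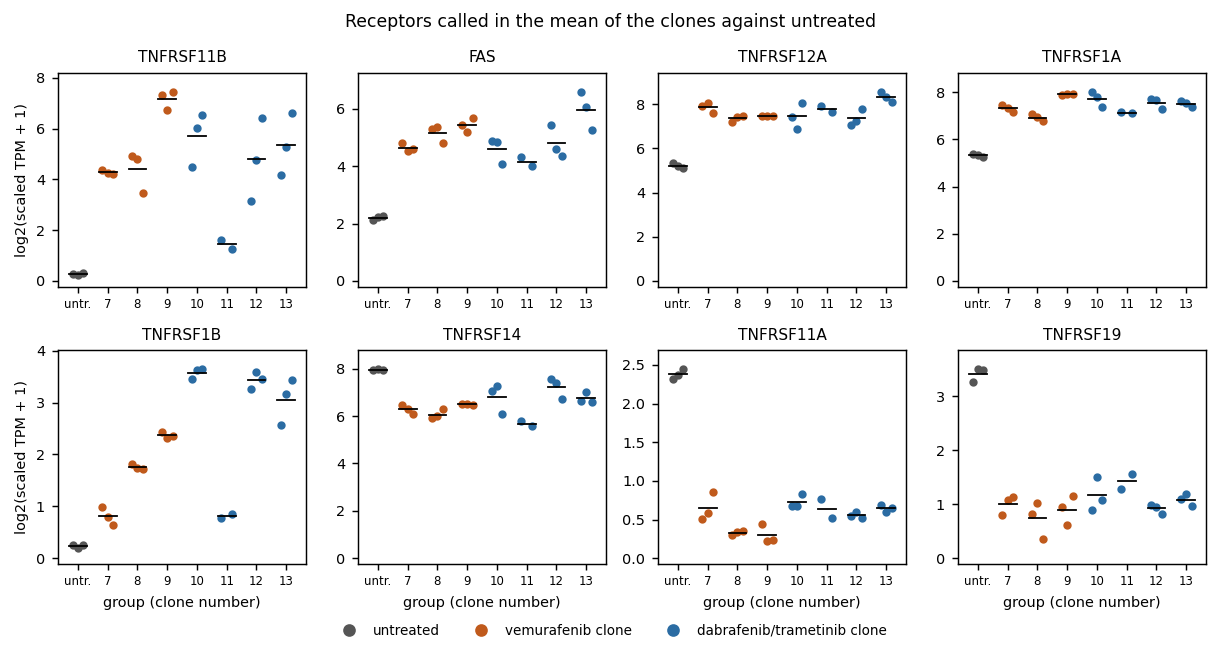
Each library's log2(scaled TPM + 1) (y axis) for the 8 receptors called in the mean of the clones, in untreated cells and clones 7 to 13 (x axis); points are libraries, bars are group means and colours give the drug arm. For TNFRSF11A and TNFRSF19 every clone library sits below the untreated libraries, and TNFRSF1B is low in clones 7 and 11 (0.750 TPM on average in clone 11).

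Among the 16 receptors without a death domain, 8 were tested, of which 2 rose and 3 fell. TNFRSF12A, the TWEAK receptor Fn14, read 39.3, 35.6 and 33.3 TPM in untreated cells, then 239.8, 267 and 193 (clone 7), 145, 171 and 174 (clone 8), 173, 176 and 176 (clone 9). TNFRSF12A in the other arm read 171, 116 and 267 (clone 10), 240.1 and 198 (clone 11), 133, 149.7 and 218 (clone 12), 372, 318 and 272 (clone 13). All clone libraries exceeded untreated cells and clone 13 was highest. TNFRSF12A differed on average by 2.45 ± 0.17 (SE; adjusted p = 3.40e-10), and each clone was called, from 2.15 in clone 8 to 3.11 in clone 13. Among clones the range was 0.96, under the threshold of 1 (F test adjusted p = 0.0100).

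TNFRSF1B, the TNF receptor TNFR2, read 0.192, 0.139 and 0.196 TPM in untreated cells, then 0.987, 0.725 and 0.564 (clone 7), 2.54, 2.36 and 2.28 (clone 8), 4.37, 4.01 and 4.14 (clone 9). TNFRSF1B in the other arm read 9.90, 11.3 and 11.5 (clone 10), 0.705 and 0.796 (clone 11), 8.62, 11.0 and 10.0 (clone 12), 4.97, 7.95 and 9.76 (clone 13). The clones formed steps, with clones 7 and 11 lowest, then clone 8, then clone 9, and clones 10, 12 and 13 highest, though all were above untreated cells. TNFRSF1B averaged over the clones differed by 2.03 ± 0.12 (SE; adjusted p = 4.64e-11). TNFRSF1B rose in clone 8 (1.53), clone 9 (2.14), clone 10 (3.34), clone 12 (3.20) and clone 13 (2.82), and the values of clones 7 (0.57) and 11 (0.57) were under the fold threshold. The F test among clones gave an adjusted p of 1.91e-10 with a range of 2.76, and 13 of 21 pairs of clones were called. In every library TNFRSF1B was lower than TNFRSF1A, whose clone libraries ran from 108 to 256 TPM beside 0.564 to 11.5 TPM.

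TNFRSF14 encodes HVEM, a receptor of TNFSF14 that also binds the inhibitory receptor BTLA. TNFRSF14 read 244, 250.4 and 248 TPM in untreated cells, the highest level of the 42 members there. TNFRSF14 in the vemurafenib arm read 87.7, 77.3 and 66.9 (clone 7), 58.7, 63.0 and 77.7 (clone 8), 90.1, 89.8 and 88.6 (clone 9). TNFRSF14 in the other arm read 131, 151 and 67.1 (clone 10), 53.9 and 46.9 (clone 11), 189.8, 166 and 104 (clone 12), 98.4, 129.9 and 96.2 (clone 13). Every clone library was below untreated cells, with clone 11 lowest and clone 12 nearest to them. TNFRSF14 averaged over the clones differed by -1.48 ± 0.18 (SE; adjusted p = 8.73e-07). TNFRSF14 fell in each clone except clone 12, from -2.28 in clone 11 to -1.16 in clone 10, and clone 12 differed by -0.73, under the fold threshold. The F test among clones had an adjusted p of 0.000971 with a range of 1.55.

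TNFRSF11A encodes RANK, the receptor of RANK ligand. TNFRSF11A read 3.97, 4.19 and 4.44 TPM in untreated cells, then 0.423, 0.506 and 0.802 (clone 7), 0.227, 0.268 and 0.272 (clone 8), 0.355, 0.163 and 0.178 (clone 9). TNFRSF11A in the other arm read 0.598, 0.603 and 0.778 (clone 10), 0.706 and 0.427 (clone 11), 0.460, 0.517 and 0.436 (clone 12), 0.617, 0.518 and 0.566 (clone 13). No clone library reached 1 TPM, so TNFRSF11A was tested only because of the untreated libraries, and the groups did not overlap. TNFRSF11A differed on average by -1.83 ± 0.09 (SE; adjusted p = 1.27e-12), with single clones from -2.08 (clone 9) to -1.65 (clone 10), each called. TNFRSF19 (TROY), a receptor known from the nervous system and skin appendages, read 8.67, 10.3 and 10.2 TPM in untreated cells, then 0.737, 1.11 and 1.21 (clone 7), 0.776, 1.04 and 0.278 (clone 8), 0.919, 0.526 and 1.21 (clone 9). TNFRSF19 in the other arm read 0.861, 1.86 and 1.11 (clone 10), 1.42 and 1.97 (clone 11), 0.979, 0.941 and 0.771 (clone 12), 1.14, 1.27 and 0.947 (clone 13). No clone library reached 2 TPM and none overlapped the untreated ones. TNFRSF19 averaged over the clones differed by -2.39 ± 0.14 (SE; adjusted p = 3.36e-11), with single clones from -2.68 (clone 8) to -2.00 (clone 11), each called. Neither receptor was called by the F test among clones, with ranges of 0.43 and 0.69, both under the threshold of 1.

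LTBR, the lymphotoxin beta receptor, averaged 146 ± 1.39 TPM (SD, n = 3) untreated and ran from 139 to 315 TPM in clone libraries. Its mean difference of 0.52 ± 0.09 (SE; adjusted p = 6.84e-05) was under the fold threshold and no single clone was called. TNFRSF4 (OX40) was at 0.0916 to 0.220 TPM in untreated cells and no more than 1.37 TPM in clone libraries, apart from clone 10 replicate 1 at 10.3 TPM, without which it was not tested. TNFRSF13C (BAFF receptor), which was not tested, was lower in all 20 clone libraries, at 0 to 0.572 TPM, than in untreated cells, at 0.716 to 1.00 TPM. The share of untested genes separated in this way is not given. CD40, EDA2R, TNFRSF8, TNFRSF9, TNFRSF13B, TNFRSF17 and TNFRSF18 were also untested, and the highest value among them was 0.768 TPM, for EDA2R in clone 13 replicate 2.

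Each clone was also compared with the same 3 untreated libraries, so the comparisons share their controls and are set side by side. In clone 7, 4 of the 23 tested members were called higher (11.1% of all genes tested) and 4 lower (8.49%), and all 4 that rose were receptors. In clone 8, 8 were higher (11.0%) and 3 lower (9.30%), including CD70, TNFSF10 and TNFSF13B among those that rose. In clone 9, 7 were higher (11.5%) and 3 lower (8.22%), with TNFSF10 and TNFSF15 as the ligands that rose. In clone 10, 8 were higher (11.8%) and 4 lower (10.6%), with TNFSF13 among the lower only while replicate 1 was kept. In clone 11, 7 were higher (11.5%) and 4 lower (9.67%), and 4 of the 7 were ligands: CD70, TNFSF9, TNFSF10 and TNFSF13B. In clone 12, 8 were higher (11.5%) and 2 lower (8.02%), those lower being TNFRSF11A and TNFRSF19. In clone 13, 8 were higher (12.3%) and 4 lower (8.34%), with TNFRSF21 joining the 3 receptors lower in the mean.

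**Figure D4:**
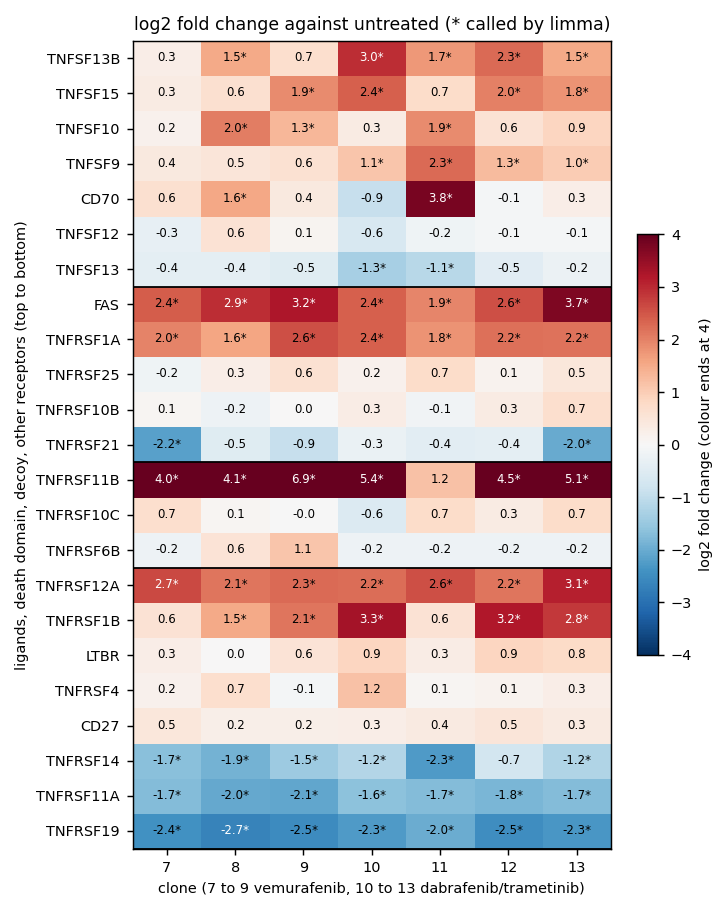
Log2 fold change of each tested member (rows, grouped by role) in each clone against untreated cells (columns); red is higher and blue lower in the clone, colour ends at 4, and an asterisk marks a limma call. FAS, TNFRSF1A and TNFRSF12A are red and TNFRSF11A and TNFRSF19 blue in each column, whereas CD70 runs from -0.91 in clone 10 (-0.57 without replicate 1) to 3.80 in clone 11.

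Between the clones themselves, 12 of the 23 tested members differed by the F test, beside 25.3% of all genes tested. They were CD70, FAS, TNFRSF10C, TNFRSF11B, TNFRSF14, TNFRSF1B, TNFRSF21, TNFSF10, TNFSF12, TNFSF13B, TNFSF15 and TNFSF9, that is 6 of the 7 tested ligands and 6 of the 16 tested receptors. Of these, TNFRSF11B, TNFRSF1B, TNFSF10, TNFSF13B and TNFSF15 were tested only because of the clones. TNFRSF1B, TNFSF10 and TNFSF15 reached 1 TPM in only 15, 14 and 13 of the 20 clone libraries. The filter thus favours members that differ between clones, and these counts are a description that supports nothing further. The widest ranges between clone means were 5.71 for TNFRSF11B, 4.70 for CD70, 2.76 for TNFRSF1B and 2.69 for TNFSF13B. Without clone 10 replicate 1, TNFRSF10C (range 0.83) and TNFSF12 (range 0.94) were no longer called.

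Clone 11 differed from each of the other 6 clones, in the same direction, in 3 members (2.93% of all genes tested were so called for some clone). CD70 was higher in clone 11, by at least 2.24 on the log2 scale against any other clone (largest adjusted p = 2.25e-05). TNFSF9 was higher by at least 1.01 (largest adjusted p = 0.00423). TNFRSF11B was lower by at least 2.84 (largest adjusted p = 0.00953). Clone 11 has 2 libraries, and with either of them alone CD70 kept its 6 pairwise calls. TNFSF9 kept 5 of 6 without replicate 2 and 6 without replicate 3, and TNFRSF11B kept 5 and 4.

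To compare drug arms, the clone was taken as the unit, with the 3 vemurafenib clones set against the 4 dabrafenib/trametinib clones. In limma no tested member was called, and 0.0192% of all genes tested were. At an unadjusted p under 0.05 there were 3 of the 23 members, beside 14.5% of all genes tested, and for each the adjusted p missed the threshold. TNFSF13B differed by -1.29 (vemurafenib minus dabrafenib/trametinib, adjusted p = 0.263 in limma), TNFSF9 by -0.91 (adjusted p = 0.270) and TNFRSF6B by 0.69 (adjusted p = 0.315). TNFRSF1B had a difference of -1.07 (adjusted p = 0.500), with clone 11 among the lowest values of its arm. The clone was also taken as the unit against untreated cells, with the 7 clone means set against the 3 untreated libraries. Those 3 are libraries of the same untreated line, not separate clones. In that limma fit, the 12 members called in the mean of the clones had adjusted p-values from 3.54e-07 (TNFRSF19) to 0.0482 (TNFSF10). They had been picked by the same differences in the same libraries, so these values are a description and add no support. TNFRSF11B, TNFRSF1B, TNFSF10, TNFSF13B and TNFSF15 were tested only because of the clones, and TNFRSF11A only because of the untreated libraries. The share of all genes tested that passed in this fit is not given.

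Other genes of the pathway were read from lists of known components. Of 3 tested superfamily genes outside the naming rule, none rose (10.9% of all genes tested) and 1 fell (7.92%). This was EDA, the ligand of EDA2R and EDAR, which changed by -1.16 ± 0.10 (SE; adjusted p = 5.21e-09). EDA had 2.82 ± 0.358 TPM (SD, n = 3) untreated and 0.245 to 1.12 TPM as the range of clone means. NGFR, a death domain receptor, was not called in the mean (0.48) and had clone means of 0.687 to 6.11 TPM beside 1.52 ± 0.0461 TPM (SD, n = 3) in untreated cells, and CD40LG and EDAR did not exceed 0.0726 and 0.00764 TPM. Of 41 tested adaptors, ubiquitin enzymes and caspases downstream of the receptors, 3 rose (10.9% of all genes tested) and 2 fell (7.92%). The median log2 fold change of these 41 was 0.24, beside -0.01 for all genes tested. MLKL, the effector of necroptosis, rose by 1.98 ± 0.11 (SE; adjusted p = 7.04e-12), with 1.05 ± 0.210 TPM (SD, n = 3) untreated and 5.37 to 10.2 TPM as the range of clone means, while RIPK3, the kinase that activates it, is listed at 0 in all 23 libraries. TNFAIP3 (A20), a ubiquitin-editing inhibitor of NF-kappa-B, rose by 1.92 ± 0.28 (SE; adjusted p = 8.32e-06). CYLD, a deubiquitinase of the same pathway, rose by 1.18.

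TRAF4, a TRAF-family adaptor, changed by -1.65 ± 0.10 (SE; adjusted p = 3.14e-11), with 63.7 ± 0.728 TPM (SD, n = 3) untreated and 14.6 to 25.7 TPM as the range of clone means. SPATA2, which bridges CYLD to the ubiquitin ligase complex, fell as well (-1.13). CASP8 and CFLAR, the initiator caspase and its inhibitor, differed by 0.91 and 0.79, under the fold threshold. Of the 7 tested sheddases and cofactors, only TIMP3 was called, beside 10.9% of all genes tested higher and 7.92% lower. TIMP3, an inhibitor of the TNF-releasing protease ADAM17, rose by 1.78 ± 0.08 (SE) in limma (adjusted p = 1.54e-13). It had 168 ± 5.21 TPM (SD, n = 3) untreated and 287 to 1028 TPM as the range of clone means. ADAM17 itself was not called (0.51). Of 8 tested genes named for their link to TNF, 2 rose (10.9% of all genes tested) and 1 fell (7.92%). TNFAIP6, which encodes a hyaluronan-binding secreted protein, rose by 2.47 ± 0.14 (SE; adjusted p = 1.46e-11), TNFAIP3, which stands in both lists, is the other, and C1QTNF1 changed by -2.04 ± 0.11 (SE; adjusted p = 1.09e-11).

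**Figure D5:**
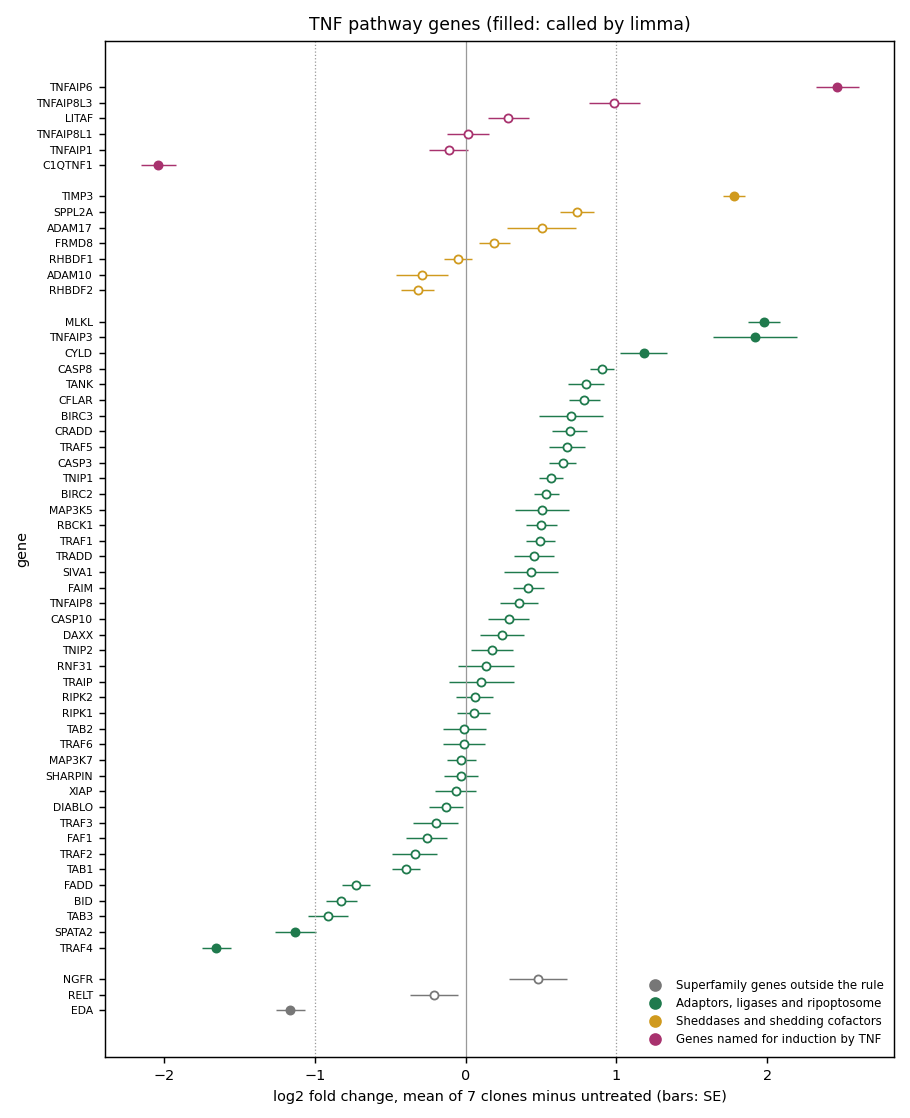
Log2 fold change, average of the 7 clones minus untreated (x axis, bars are SE) for the tested pathway genes (y axis), grouped by list, with filled points called by limma and dotted lines at -1 and 1. TNFAIP6, MLKL, TNFAIP3 and TIMP3 lie farthest right and C1QTNF1 (-2.04) and TRAF4 (-1.65) farthest left.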

How the data were processed

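The deposited table holds 1 value per gene for each of 23 libraries, read here as TPM because every column has the same total, although the name the authors gave the table speaks of counts. Per the submitters' processing notes, kallisto and hg19 were used, with no version. The annotation and the summary by gene were not given in the sources used here. Because TPM values carry no depth, precision could only be read from the spread between libraries. Libraries were scaled by a trimmed mean of log ratios (30% of ratios and 5% of levels trimmed on each side, over 10822 genes). Tests covered the 15657 genes that reached 1 TPM in 2 or more libraries. Values of log2(scaled TPM + 1) entered 1 limma fit with a trend (limma 3.58.1, R 4.3.3) over 8 groups. The contrasts were each clone and the unweighted mean of the 7 clones against untreated cells, the 21 pairs of clones, an F test among clones (6 degrees of freedom) and, on clone means, the drug arms. Calls needed a Benjamini-Hochberg adjusted p under 0.05 and a log2 fold change of 1 or more in size, or for the F test a range of 1 or more between clone means. The method was tested on simulated data. The members and gene lists were chosen with earlier results of these data known. All tested members are named, and values in every library are given for those called in the mean of the clones, by the F test or against each other clone. Up to 4 called genes per pathway list are named. RIPK3, CASP8, CFLAR, SPATA2, ADAM17, NGFR, CD40LG and EDAR were picked beyond that rule after their values were seen. OTULIN, MAP3K14 and SPPL2B were not analysed here, and 1 other listed gene is not reported here. The alternatives were other scaling, pseudocount, filter and variance trend, a replicate block, the clone as the unit, and leaving out each library or clone.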

Additional observations from a re-analysis of the deposited data

Results flagged for a closer look

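In 3 members the log2 fold change of clone 11 against untreated cells differed from that of each other clone, by the pairwise limma contrasts between clones, which do not use the untreated libraries. CD70 had a value of 3.80 in clone 11 and between -0.91 and 1.55 in the other clones, the lowest being clone 10, at -0.57 without replicate 1. TNFSF9 had 2.27 in clone 11 and between 0.39 and 1.25 in the others. TNFRSF11B had 1.18 in clone 11 and between 4.02 and 6.89 in the others. The 2 libraries of clone 11 read 35.8 and 46.0 TPM for CD70, 16.7 and 13.3 TPM for TNFSF9 and 2.05 and 1.42 TPM for TNFRSF11B.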

How the results depend on the processing

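Leaving out single libraries, 7 to 9 members were called higher and 3 lower on average over the clones, and under the other settings 7 to 10 and 2 to 4. The count of members set apart in 1 clone ranged from 1 to 3 when single libraries were left out, and was 1 without clone 11 replicate 2 (CD70). TNFSF9 also lost that status without clone 10 replicate 3, clone 12 replicate 2 or clone 12 replicate 3, and TNFRSF11B without clone 11 replicate 3. Leaving out clone 7 or clone 13 added TNFRSF21, leaving out clone 9, clone 12 or clone 10 replicate 3 added TNFSF13B, and without clone 11 no member was set apart. With the values as deposited, all genes had a median log2 fold change of 0.14 (a shift of 0.16) and 67.3% of calls were higher (57.8% with scaling), while the same 12 members were called. TNFSF12 changed sign as deposited (0.0861) and without clone 10 (0.0120), and TNFRSF6B with a pseudocount of 0.1 (-0.183) and over the left-out libraries (-0.0221 to 0.298); neither was called. A TPM minimum of 5 left 17 members tested and 10 called, since TNFRSF11A and TNFSF10 were no longer tested. TNFRSF21 passed the fold threshold without clone 8 (-1.03), 10 (-1.06), 11 (-1.04) or 12 (-1.05). With the replicate block 9 members were higher and 3 lower, the same 12. Over all genes tested, deviations of same-numbered libraries had a median correlation of 0.0138 (-0.622 to 0.418, 77 pairs). For different-numbered libraries it was -0.00928 (-0.574 to 0.715, 154 pairs). Such medians cannot exclude an order by replicate number in single members. TNFRSF1A fell with the number in every group but clone 9. TNFRSF11B rose with it in clones 10, 12 and 13 and fell in clones 7, 8 and 11. No arm value was fitted with the block. Depth is unknown, so how far low values are limited by it was not tested.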
